A study of Homo sapiens with 12 samples.

Results

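The 9 genes described here are NR3C1, which encodes the glucocorticoid receptor, and 8 genes that glucocorticoids are known to induce in many cell types: TSC22D3, PER1, ZBTB16, KLF9, SGK1, DUSP1, CRISPLD2 and GLUL. They were chosen by name, and each was found once by its Ensembl identifier among the 62262 genes of the deposited count table. All 9 had enough counts to be tested, among 19784 genes tested in all. The RNA came from a conditionally immortalized human podocyte line, in which a temperature-sensitive SV40 T antigen is inactivated by a shift in culture temperature so that the cells stop dividing and differentiate. Podocytes are the epithelial cells that wrap the glomerular capillaries of the kidney. After differentiation at the temperature that inactivates the antigen, cultures received the solvent DMSO as control, or one of the calcineurin inhibitors cyclosporine A (CSA), voclosporin (VCS) and tacrolimus (TAC). Each inhibitor was given at 100 nM for 24 h, and each of the 4 groups held 3 poly(A) RNA libraries. All groups share the line, the immortalizing antigen and the culture medium, for which the labels name fetal bovine serum, antibiotics and an insulin, transferrin and selenium supplement. The labels name no glucocorticoid among the additions, and no group was treated with one. They do not say whether the 3 libraries of a group came from separate cultures, so p-values measure the spread between these libraries, which may be technical.

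The glucocorticoid receptor is a nuclear receptor that rests in the cytoplasm in a complex with HSP90 and its cochaperones. Bound by cortisol or a synthetic steroid, it enters the nucleus, binds DNA at response elements and induces one set of genes while repressing many inflammatory genes. Glucocorticoids are a mainstay of treatment for nephrotic syndrome, in which podocytes are injured, and calcineurin inhibitors are used in the same disease. CSA and VCS bind cyclophilins and TAC binds FKBP proteins, and both drug-protein complexes inhibit calcineurin, the phosphatase that activates NFAT transcription factors. Cyclophilins and FKBP proteins also include cochaperones of steroid receptor complexes, encoded by PPID, FKBP4 and FKBP5. Several of the 8 targets answer to other signals too: DUSP1, SGK1 and PER1 respond within minutes to serum, stress or cAMP.

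RefSeq promoter windows on GRCh38.p14, running from 250 bases before a transcription start to 50 after it, were matched for 8 of the 9 genes, with 20 windows between them. A window for ZBTB16 was not matched. Each window was searched on both strands for 6 motifs. Parts of 3 windows are shown, because they hold the only complete cAMP response element, the E-boxes and a pair of TGACG cores of that element next to a TATA box among the members. All 3 are written along the gene's own strand, which is the minus strand. Capitals mark only the matches of the motifs named for each stretch below.
DUSP1: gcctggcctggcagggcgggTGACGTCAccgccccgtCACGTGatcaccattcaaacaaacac
PER1: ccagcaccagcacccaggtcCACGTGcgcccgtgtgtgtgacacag
TSC22D3: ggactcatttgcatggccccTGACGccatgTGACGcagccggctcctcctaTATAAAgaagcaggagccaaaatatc
The DUSP1 stretch is chr5:172771278-172771340 and lies 145 to 83 bases before the start. It holds the cAMP response element TGACGTCA, followed by the E-box CACGTG. The PER1 stretch is chr17:8152552-8152597, lies 193 to 148 bases before a start within the gene, and holds an E-box, the element through which clock activators act on PER1. The TSC22D3 stretch is chrX:107717066-107717142 and lies 80 to 4 bases before a start within the gene. It holds the core TGACG at 2 places and the TATA box TATAAA.

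These letters were read against all 35116 RefSeq windows of the same length. The full glucocorticoid response element, AGAACA and its inverted repeat spaced by 3 bases, was in 1 of the 35116 windows and in 0 of the 20 member windows, which says only that these letters are not in these windows. AGAACA by itself was in 14.785% of all windows and in 1 member window, that of an SGK1 start. TGACGTCA was in 1.848% of all windows and among the members in DUSP1 alone. The core TGACG was in 24.553% of all windows and in 7 member windows of NR3C1, TSC22D3 and DUSP1. The E-box was in 7.256% of all windows and in 2 member windows, those shown for PER1 and DUSP1. TATAAA was in 11.53% of all windows and in 6 member windows of NR3C1, TSC22D3, SGK1 and DUSP1. TGACGTCA contains TGACG on both strands, and in DUSP1 a further TGACG on the opposite strand overlaps the E-box, so these matches are not separate. Another TGACG of DUSP1, 172 bases before the start, lies apart from them and outside the stretch shown. No motif was matched in the windows of KLF9, GLUL and CRISPLD2.

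Total counts per library ran from 28808213 to 36077072. The 4 libraries numbered 3, one in each group, stood apart from the others: mitochondrial transcripts took 9.68 to 13.4% of their counts, against 5.82 to 8.12% in the other 8. The labels do not say what a replicate number marks. Of the podocyte's own markers, the cytoskeletal gene SYNPO (synaptopodin) lay at 41.9 to 67.3 CPM (edgeR's counts scaled to library size). WT1, a transcription factor of podocytes, lay at 0.637 to 1.48 CPM, and NPHS1, which encodes nephrin of the slit diaphragm, had 1 to 11 counts. NPHS1 and WT1 were thus low while the collagen gene COL1A1 (3294 to 5455 CPM) and the parietal epithelial genes KRT8 and PAX8 (834 to 921 and 251 to 476 CPM) were abundant. The summed markers of endothelium stayed at or under 10.4 CPM and those of proximal tubule at or under 6.497 CPM. Those of leukocytes summed to 56.6 to 90.2 CPM, most of it CD68 (54.4 to 88.6), with PTPRC at or under 0.448 CPM. Those of airway epithelium summed to 17.1 to 59.5 CPM, with SFTPB at 6.55 to 18.2 CPM.

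CPM divided by the length of a gene's merged exons in GENCODE 29 allow levels to be set side by side. On that scale, per kilobase of exon, DUSP1 was the highest of the 9 at a mean of 87.1 over the 12 libraries, with a range of 65.5 to 113. CRISPLD2 followed at 29.1 (25.1 to 40.4). Neither range met that of any other member. NR3C1 stood at 9.35 (7.84 to 11.1) and SGK1 at 6.99 (5.99 to 7.89), and these ranges met only at their edge. KLF9 stood alone at 3.45 (2.79 to 4.25). TSC22D3 at 2.08 (1.54 to 2.61), GLUL at 1.64 (1.32 to 2.23) and PER1 at 1.41 (1.11 to 1.92) overlapped one another, so their order is not resolved. ZBTB16 was at 0.0702 (0.0168 to 0.116), far under the others. Exon lengths merge all transcripts of a gene and overstate the length of any single transcript, and that limits this ordering.

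The same genes differed in how steady they were. Over all 12 libraries the coefficient of variation of the CPM ran from 9.65% in SGK1 and 11.96% in NR3C1 to 18.2% in GLUL and 49.0% in ZBTB16. ZBTB16 had only 174 counts in the 12 libraries together, between 3 and 23 in each, so counting error is large beside its level. For the other 8 the summed counts ran from 3834 in PER1 to 90015 in CRISPLD2.

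**Figure D1:**
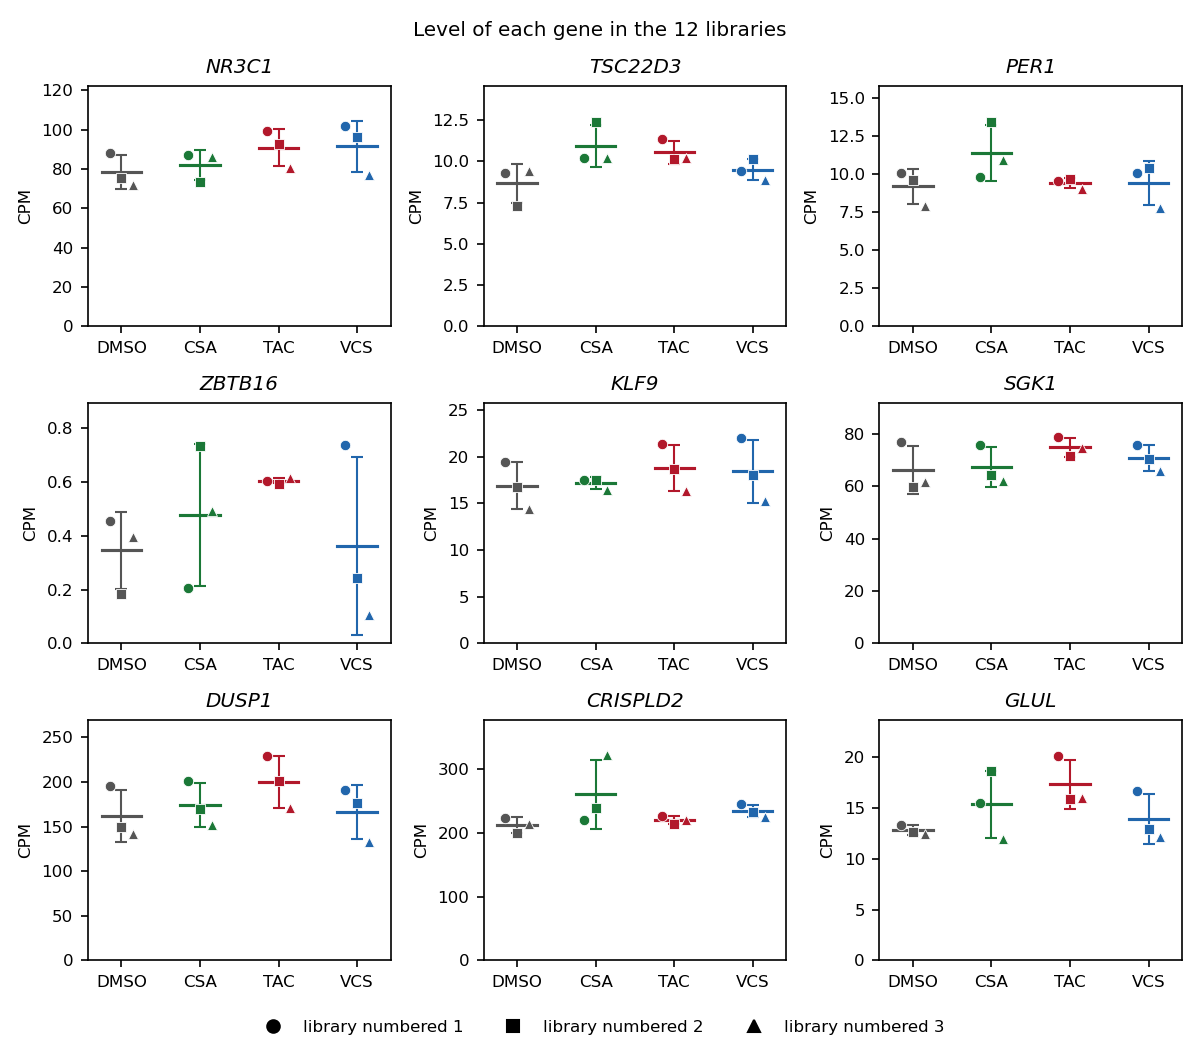
Level of each of the 9 genes in the 12 libraries, in CPM on a linear axis that starts at 0, by group (DMSO, CSA, TAC, VCS). Each point is 1 library, its shape gives the replicate number, the horizontal line is the group mean and the bar is ± 1 SD (n = 3). The 4 groups overlap for most genes, and the triangles (libraries numbered 3) are the lowest of each group for KLF9 and DUSP1.

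The receptor itself was well expressed in every library. NR3C1 (chr5:143277931-143435512, minus strand, GRCh38) was at 88.1, 75.3 and 71.9 CPM in the DMSO libraries numbered 1, 2 and 3, and at 87.2, 73.2 and 86.0 in CSA. It was at 99.2, 92.7 and 80.7 CPM in TAC and at 102, 96.0 and 77.0 in VCS. The lowest values in TAC and VCS were those of the libraries numbered 3, and both lay inside the range of DMSO. Against DMSO the log2 fold change was 0.07 in CSA (SE 0.13, 95% interval -0.21 to 0.34), 0.21 in TAC (SE 0.13, -0.06 to 0.48) and 0.22 in VCS (SE 0.13, -0.05 to 0.50). None passed edgeR's quasi-likelihood test at a Benjamini-Hochberg adjusted p under 0.05 (0.96, 0.92 and 0.96). For each inhibitor the interval leaves out a change of NR3C1 larger than 0.50 in log2 in either direction. In these bulk libraries, less RNA per cell and fewer expressing cells cannot be told apart, here and for all genes that follow.

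None of the 9 genes differed between treatment groups by that test. The count of members called was 0 of 9 in each comparison with DMSO, where 0.0101% of all tested genes were called for CSA, 0.0354% for TAC and 0.00505% for VCS. At an unadjusted p under 0.05 the members numbered 2 in CSA (TSC22D3 and CRISPLD2), 2 in TAC (GLUL and TSC22D3) and 0 in VCS, all higher than in DMSO. Over all genes 2.05%, 2.25% and 1.53% were higher at that p and 1.7%, 2.4% and 1.74% were lower. DESeq2 also called 0 of the 9 in each of these comparisons. The smallest adjusted p of a member was 0.94 for CSA, 0.92 for TAC and 0.96 for VCS.

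All 9 fold changes lay above 0 in each of the 3 comparisons, which share the same 3 DMSO libraries and so are not independent of one another. The median over the 9 genes was 0.26 in log2 for CSA, 0.21 for TAC and 0.12 for VCS, against -0.0043, -0.0044 and 0.0041 over all tested genes, of which 49.0%, 49.0% and 50.9% lay above 0. Without the libraries numbered 3, the members above 0 were 7, 8 and 9 for CSA, TAC and VCS. For VCS the count rested on the library numbered 1 of that group: without it, 4 of 9 lay above 0. The plot of fold changes shows how wide the intervals were beside these medians.

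**Figure D2:**
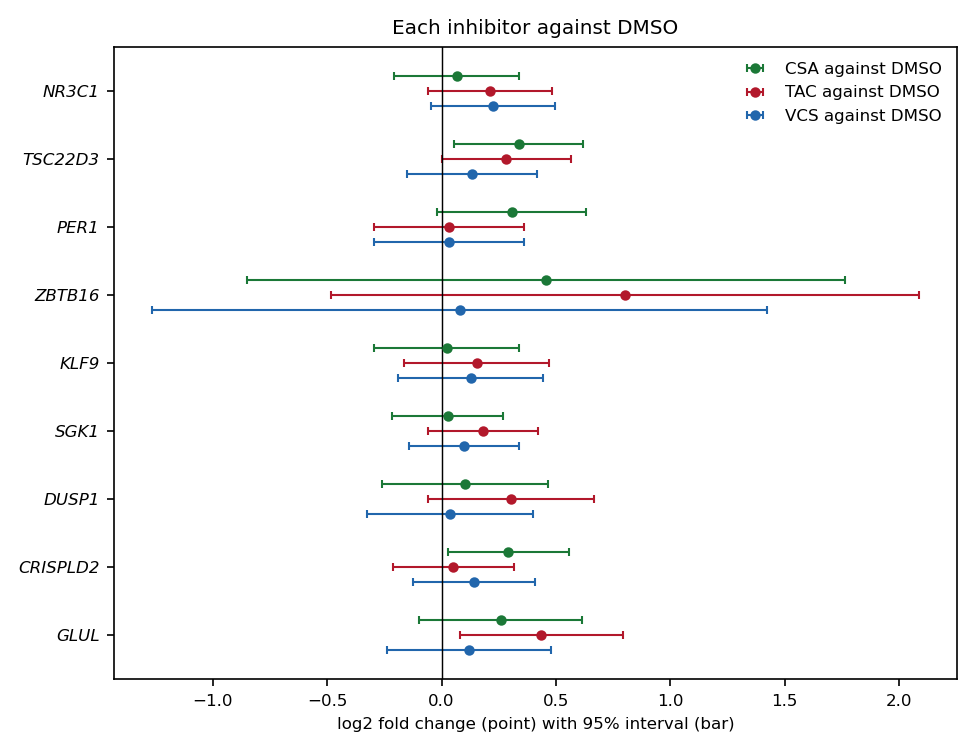
Log2 fold change of each gene against DMSO (points) with its 95% interval (bars) from the fit over all 12 libraries; colours mark CSA, TAC and VCS, and the vertical line is no change. All points lie right of 0, most intervals cross it, and the ZBTB16 intervals are the widest, from -1.26 to 2.09 over the 3 comparisons.

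TSC22D3 (chrX:107713221-107777342, minus strand) encodes GILZ, a leucine zipper protein that mediates part of the anti-inflammatory action of glucocorticoids. It was at 9.30, 7.32 and 9.40 CPM in DMSO, with the library numbered 2 the lowest. In CSA it was at 10.2, 12.4 and 10.2 CPM and in TAC at 11.3, 10.1 and 10.2 CPM. All 6 of these libraries lay above all 3 of DMSO. VCS, at 9.44, 10.2 and 8.91 CPM, overlapped DMSO. The log2 fold change was 0.34 in CSA (SE 0.13, unadjusted p = 0.023, edgeR adjusted p = 0.94), 0.28 in TAC (SE 0.13, unadjusted p = 0.050, edgeR adjusted p = 0.92) and 0.13 in VCS (SE 0.13, edgeR adjusted p = 0.96). Across all genes, 4.94% had all CSA libraries above all DMSO libraries, 5.99% had all TAC libraries above, and 3.32% had all VCS libraries above. Averaged over the 3 inhibitors, TSC22D3 was the only member with an unadjusted p under 0.05 (log2 0.25, SE 0.11, edgeR adjusted p = 0.88). In that comparison 0 of 9 members and 0.0101% of all genes were called. Without the DMSO library numbered 2 the fold change in TAC was 0.18.

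PER1 (chr17:8140472-8156506, minus strand) encodes a repressor of the circadian clock that glucocorticoids induce. It was at 10.1, 9.66 and 7.91 CPM in DMSO and at 9.85, 13.5 and 10.9 in CSA. TAC gave 9.58, 9.68 and 9.03 CPM and VCS 10.1, 10.4 and 7.76. The CSA library numbered 2 was the highest of the 12. Each inhibitor overlapped DMSO. The fold change was 0.31 in CSA (SE 0.15, 95% interval -0.02 to 0.63) and 0.03 in TAC and in VCS (SE 0.15 in both). PER1 shares exons on the same strand with AC129492.3, which had 637 counts against 3834 for PER1 over the 12 libraries, so its counts may be split in part.

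ZBTB16 (chr11:114059593-114250676, plus strand) encodes PLZF, a zinc finger repressor that is among the genes most strongly induced by glucocorticoids in many tissues. Here it was barely detected. It had 15, 6 and 12 counts in the DMSO libraries and 7, 23 and 17 counts in those of CSA. TAC gave 20, 20 and 20 counts and VCS 23, 8 and 3. The 3 TAC libraries lay above all of DMSO, while CSA and VCS spread over nearly the whole range. On the log2 scale the difference from DMSO was 0.80 in TAC (SE 0.60, 95% interval -0.48 to 2.09, adjusted p = 0.92), 0.46 in CSA (SE 0.61) and 0.08 in VCS (SE 0.62). At this depth a change of 2-fold, 1 on that scale, lies within the interval of each of these comparisons.

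KLF9 (chr9:70384597-70414624, minus strand), a Krüppel-like transcription factor induced by steroids and thyroid hormone, was at 19.5, 16.8 and 14.4 CPM in DMSO and at 17.6, 17.5 and 16.5 in CSA. It was at 21.4, 18.7 and 16.3 CPM in TAC and at 22.02, 18.1 and 15.3 in VCS. The spread within a group followed the library number, and the groups overlapped. The fold changes were 0.02, 0.15 and 0.13 in log2 (SE 0.15 in each) for CSA, TAC and VCS.

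SGK1 (chr6:134169246-134318112, minus strand) encodes a kinase that raises sodium transport in epithelia and is induced by glucocorticoids and mineralocorticoids. Its DMSO libraries gave 76.8, 59.9 and 61.8 CPM and its CSA libraries 76.0, 64.3 and 62.0, while TAC gave 78.8, 71.5 and 74.8 and VCS 75.8, 70.7 and 66.0. The library numbered 1 was the highest of every group. SGK1 had the narrowest intervals of the 9: its fold change was 0.03 in CSA (95% interval -0.22 to 0.27), 0.18 in TAC (-0.06 to 0.42) and 0.10 in VCS (-0.14 to 0.34).

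DUSP1 (chr5:172768090-172771195, minus strand), a phosphatase that switches off p38 and JNK MAP kinases, was at 196, 149 and 142 CPM in DMSO and at 201, 169 and 152 in CSA. It was at 229, 202 and 171 CPM in TAC and at 191, 177 and 132 in VCS. In each group the order was library 1, then 2, then 3, and the range within a group exceeded the differences between group means. The groups share that order, so the range is in part one of library number. By number, TAC lay above DMSO in 3 of 3 pairs, CSA in 3 and VCS in 1, though the labels give no such pairing. The fold change was 0.30 in TAC (SE 0.17, 95% interval -0.06 to 0.67), 0.10 in CSA and 0.04 in VCS (SE 0.17 in both). In an alternative fit with replicate number as a second term, the TAC value was 0.31 (SE 0.07, edgeR unadjusted p = 0.0013, adjusted p = 0.15).

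CRISPLD2 (chr16:84819984-84920768, plus strand) encodes a secreted protein that glucocorticoids induce in airway smooth muscle. It was at 224, 199.96 and 214 CPM in DMSO and at 221, 239 and 322 in CSA, where the library numbered 3 was the highest of the 12. TAC gave 227, 214 and 221 CPM, within or just above the range of DMSO. VCS gave 245, 233 and 226 CPM, all 3 above DMSO by a small margin. The fold change was 0.29 in CSA (SE 0.12, unadjusted p = 0.033, edgeR adjusted p = 0.94), 0.05 in TAC (SE 0.12) and 0.14 in VCS (SE 0.12). The CSA value rested on the library numbered 3 of that group: without it the fold change was 0.11. The antisense genes that overlap its exons had 54 and 50 counts in all, against 90015 for CRISPLD2.

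GLUL (chr1:182381704-182392206, minus strand) encodes glutamine synthetase, which makes glutamine from glutamate and ammonia and is a classic glucocorticoid-induced enzyme in muscle and lung. It was at 13.3, 12.6 and 12.5 CPM in DMSO, the tightest group. CSA gave 15.5, 18.6 and 11.9 CPM, TAC 20.1, 15.9 and 15.98, and VCS 16.7, 12.9 and 12.1. All 3 TAC libraries lay above DMSO, while CSA and VCS each held a library below it. The log2 fold change was 0.44 in TAC (SE 0.16, 95% interval 0.08 to 0.79, unadjusted p = 0.020, edgeR adjusted p = 0.92), 0.26 in CSA (SE 0.17) and 0.12 in VCS (SE 0.17). GLUL has near-identical copies in the genome, among which reads could be split, so its counts are uncertain to that extent.

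Liver transcripts were also present, and ZBTB16 and GLUL followed them in part. After the genes most like each member had been looked up, a list of 16 genes for plasma proteins made by the liver was written down, among them ALB, TTR, APOA1 and SERPINA1. Their summed level was 338, 299.9 and 384 CPM for the DMSO libraries and 288, 569 and 501 for those of CSA. TAC gave 594, 544 and 517 CPM and VCS 577, 288 and 291. The sums thus fell into a lower and a higher set of 6 libraries each, with no value between 384 and 501, and the higher set held all 3 TAC libraries, 2 of CSA and 1 of VCS. The 6 libraries of the higher set were also the 6 with the most ZBTB16. For GLUL the same set held the 5 highest libraries and also the lowest, the CSA library numbered 3. For TSC22D3 it held the 2 highest, with values of 9.44 to 12.4 CPM against 7.32 to 10.2 in the lower set, so the sets overlapped. ALB alone had 3314 to 9268 counts per library. TAC and DMSO did not overlap in this sum, and its part in the values of ZBTB16, GLUL and TSC22D3 was not tested. In TAC the summed level of 6 parietal epithelial markers also lay outside that of DMSO, at 2586 to 2728 against 2877 to 3076 CPM, and in CSA that of 10 podocyte markers, most of it VIM, at 4165 to 4348 against 3774 to 4158 CPM. The part of these markers in the TAC values, and in the CSA values of TSC22D3 and CRISPLD2, was not tested.

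**Figure D3:**
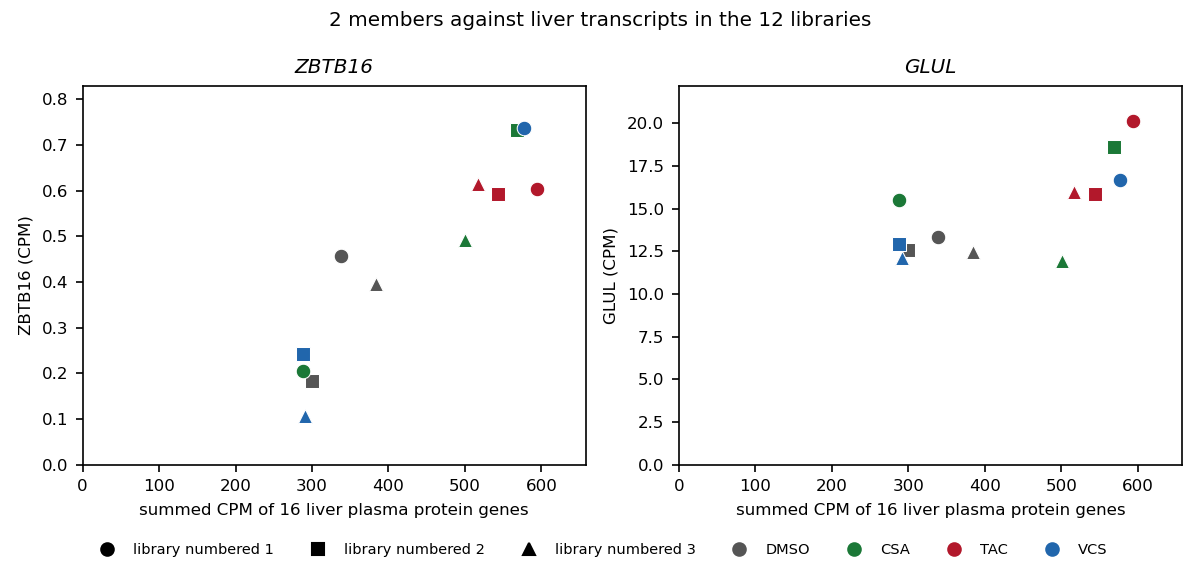
Level of ZBTB16 (left) and GLUL (right) in CPM against the summed CPM of 16 liver plasma protein genes in the 12 libraries. Colours mark the groups and shapes the replicate numbers; the axes are linear and start at 0. The 6 libraries with sums of 501 CPM or more have the 6 highest ZBTB16 values.

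The direct comparison of related compounds was that of CSA and VCS. Both are cyclic peptides, and VCS is an analog of CSA altered in the side chain of a single residue. They were given at the same dose and time. None of the 9 genes was called between them by edgeR or DESeq2, and 0 had an unadjusted edgeR p under 0.05, where 0.0101% of all genes were called. TSC22D3 differed by 0.20 in log2, CSA minus VCS (SE 0.13, 95% interval -0.08 to 0.49), PER1 by 0.27 (SE 0.15, -0.05 to 0.60) and CRISPLD2 by 0.15 (SE 0.12, -0.11 to 0.42). DUSP1 differed by 0.07 (-0.30 to 0.43), GLUL by 0.14 (-0.22 to 0.50) and ZBTB16 by 0.38 (-0.93 to 1.68). NR3C1 differed by -0.16 (-0.43 to 0.11), KLF9 by -0.11 (-0.42 to 0.21) and SGK1 by -0.07 (-0.31 to 0.17). Apart from ZBTB16, a difference above 0.60 or below -0.43 in log2 lies outside the intervals. Smaller differences between the analogs cannot be seen with 3 libraries each, so these values do not show that the compounds act alike.

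TAC is a macrolide, not a cyclic peptide, and was given at the same dose and time. CSA against TAC had 0 of 9 members called, against 0.0303% of all genes, and 3 of 9 lay above 0: PER1 at 0.27 (SE 0.15), CRISPLD2 at 0.24 (SE 0.12) and TSC22D3 at 0.05 (SE 0.13). DUSP1 was at -0.20 (SE 0.17) and GLUL at -0.18 (SE 0.16) in that comparison. TAC against VCS had 0 of 9 called, against 0.0253% of all genes, and in both comparisons 0 members had an unadjusted p under 0.05. Its larger values were those of ZBTB16 at 0.72 (SE 0.59), GLUL at 0.32 (SE 0.16) and DUSP1 at 0.27 (SE 0.17). The test for any difference among the 4 groups called 0 of 9 members and 0.0505% of all genes; TSC22D3 had the smallest unadjusted p of the 9 at 0.090 (edgeR adjusted p = 0.99).

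The members were also read by replicate number. In a fit with group and number as terms, libraries numbered 3 were set against those numbered 1 and 2. DUSP1 was lower by 0.34 in log2 (value -0.34, SE 0.06, edgeR adjusted p = 0.0017) and KLF9 by 0.27 (value -0.27, SE 0.06, edgeR adjusted p = 0.0095). These 2 of 9 were called lower, against 12.9% of all genes, and with 9 genes that count is not set apart from that share. GLUL at -0.25 (SE 0.10, adjusted p = 0.071), PER1 at -0.22 (SE 0.09, adjusted p = 0.087) and NR3C1 at -0.17 (SE 0.07, adjusted p = 0.089) did not pass edgeR's test. SGK1 stood at -0.11 (SE 0.05), ZBTB16 at -0.24 (SE 0.47) and TSC22D3 at -0.05 (SE 0.09). CRISPLD2, at 0.11 (SE 0.08), was the only member above 0.

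The order within groups showed the same. The library numbered 3 was the lowest of all 4 groups for KLF9 and DUSP1, 2 of 9 members, as it was for 10.9% of all genes. The library numbered 1 was the highest of all 4 groups for NR3C1, KLF9, SGK1 and DUSP1, 4 of 9 members, against 5.2% of all genes. Mean DUSP1 was 204 CPM in the libraries numbered 1, 174 in those numbered 2 and 149 in those numbered 3. Mean NR3C1 was 94.0, 84.3 and 78.9 CPM in the same order. The libraries numbered 3 also had the highest mitochondrial share in each group, as given above, and its part in these values was not tested.

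**Figure D4:**
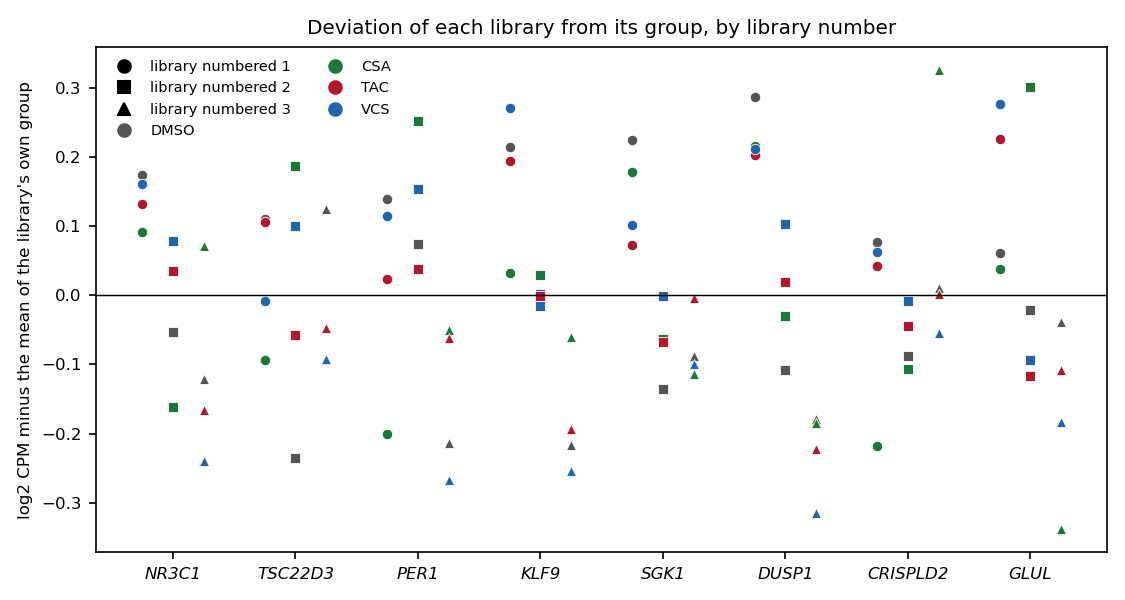
Deviation of each library from the mean of its own group, in log2 CPM, for 8 of the 9 genes (ZBTB16, whose counts are too few for this scale, is left out). Colours mark the groups, and circles, squares and triangles mark libraries numbered 1, 2 and 3. For KLF9 and DUSP1 all 4 triangles lie below 0 and below the other libraries of their group.

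For each member the gene with the most similar level over the 12 libraries was looked up among 13523 genes with a symbol and a mean log2 CPM of at least 1, by Pearson's r of log2 CPM. The points share library numbers and depth, and r is given as a description. NR3C1 was most like SLMAP (r = 0.98), KLF9 most like MARCHF7 (r = 0.96), SGK1 most like C2orf88 (r = 0.94) and DUSP1 most like PFKFB3 (r = 0.96). TSC22D3 was most like OGFRP1 (r = 0.93), PER1 most like USP11 (r = 0.89) and CRISPLD2 most like FBXO10 (r = 0.94). The remaining pair led to genes of secreted proteins: ZBTB16 was most like LBP (r = 0.97), which encodes a lipopolysaccharide binding protein made by the liver, and GLUL most like AZGP1 (r = 0.89), which encodes a secreted glycoprotein. By Spearman's rank correlation a different gene came first for all 9, so the single best match depends on the measure.

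The genes around the 9 members were read from the same fit. In all 9 lists that follow, edgeR and DESeq2 each called 0 genes in each comparison with DMSO, and unadjusted p-values are edgeR's.

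Around the receptor, 18 genes of the receptor and its chaperone cycle, NR3C1 included, were measured, and 0 were called against DMSO in any of the 3 comparisons, nor did any have an unadjusted p under 0.05. Of these, 12, 14 and 13 lay above 0 for CSA, TAC and VCS, with medians of 0.06, 0.07 and 0.05 in log2. NR3C2, the mineralocorticoid receptor that also binds cortisol, had a mean of 3.56 ± 0.35 CPM in DMSO, given as here with the SD of 3 libraries, and of 4.87 ± 1.62 in VCS (log2 0.45, SE 0.21). HSP90AA1, the stress-inducible HSP90, was at 1636 ± 38.9 CPM in DMSO and at 1627 to 1705 in the means of the inhibitor groups. HSPA1A, an HSP70, was at 154 ± 14.6 CPM in DMSO and at 132 ± 16.6 in TAC (log2 -0.23, SE 0.11). The cochaperones FKBP4 and FKBP5 bind TAC directly, and FKBP5 is itself a glucocorticoid target. FKBP4 was at 73.3 ± 11.96 CPM in DMSO and at 79.6 ± 12.3 in TAC (log2 0.12, SE 0.16). For FKBP5 the DMSO mean was 55.6 ± 6.8 CPM and those of CSA, TAC and VCS were 60.3 ± 7.0, 66.1 ± 9.9 and 61.6 ± 13.7, with fold changes of 0.12, 0.25 and 0.15 in log2 (SE 0.17 in CSA and TAC). For both cochaperones these differences were smaller than or about as large as the spread within groups.

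Of 9 genes that activate, inactivate or export steroids, 0 were called against DMSO, 1 had an unadjusted p under 0.05 (CYP3A4, in TAC), and 9 lay above 0 in CSA, 4 in TAC and 7 in VCS. HSD11B1, which regenerates cortisol, was at 1.05 ± 0.13 CPM in DMSO and at 1.26 ± 0.14 in TAC (log2 0.26, SE 0.32). HSD11B2, which inactivates it, was at 0.526 ± 0.162 CPM in DMSO and at 0.760 ± 0.319 in CSA (log2 0.54, SE 0.41). Both enzymes were thus at low levels in all groups. H6PD, which supplies NADPH to HSD11B1, was at 47.9 ± 5.5 CPM in DMSO and at 59.0 ± 8.5 in CSA (log2 0.30, SE 0.14). CYP3A4, which hydroxylates steroids and metabolizes all 3 inhibitors, was at 3.29 ± 0.77 CPM in DMSO and at 5.29 ± 0.59 in TAC (log2 0.68, SE 0.31). POR, the electron donor of such enzymes, was at 39.0 ± 3.4 CPM in DMSO and at 34.2 ± 1.8 in TAC (log2 -0.19, SE 0.13). CYP3A4 is itself expressed in liver, the summed liver transcripts given above did not overlap between TAC and DMSO, and their part in its values was not tested.

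Among 14 coregulators 0 were called and 0 had an unadjusted p under 0.05, with 11, 9 and 10 above 0 in CSA, TAC and VCS. The chromatin remodeller SMARCA4 differed from DMSO by 0.13 in CSA (SE 0.07) and the deacetylase HDAC2 by 0.16 in TAC (SE 0.08).

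Other genes known to be induced by glucocorticoids lay on both sides of 0. Of 36 such genes 34 were tested and 0 were called against DMSO; 16, 20 and 21 lay above 0 for CSA, TAC and VCS, with medians of -0.0021, 0.06 and 0.07. At an unadjusted p under 0.05 there were 0 in CSA, 3 higher and 1 lower in TAC, and 1 in each direction in VCS. One of the 3 was SERPINA3 (log2 0.83, SE 0.34), which is also expressed in liver, as are TAT (0.68, SE 0.34) and PCK1 (0.90, SE 0.46). The summed liver transcripts given above did not overlap between TAC and DMSO, and their part in these values was not tested. The lowest unadjusted p-values in the test of the 4 groups belonged to CEBPD, RGS2 and ERRFI1. CEBPD, a transcription factor of the acute phase response, was at 15.1 ± 2.4 CPM in DMSO and at 12.4 ± 1.7, 10.6 ± 0.7 and 11.1 ± 1.8 in CSA, TAC and VCS. Its log2 fold changes were thus below 0: -0.29, -0.52 and -0.45 (SE 0.15 in each). RGS2, a regulator of G protein signalling, was at 6.08 ± 0.18 CPM in DMSO and at 7.59 ± 0.74 in VCS (log2 0.32, SE 0.13). ERRFI1, an inhibitor of the EGF receptor, was at 35.4 ± 3.1 CPM in DMSO and at 46.0 ± 6.9 in TAC (log2 0.38, SE 0.13).

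Of 13 inflammatory genes that glucocorticoids are known to repress, 0 were called; 11 lay below 0 in CSA and in TAC and 8 in VCS, with medians of -0.17, -0.45 and -0.01. At an unadjusted p under 0.05 there was 1 lower in CSA, 6 lower and 1 higher in TAC, and 0 in VCS, against the 2.4% of all genes that were lower in TAC at that p. The genes of this list were chosen with earlier results of these data known. IL1B, an inflammatory cytokine, was at 4.91 ± 0.92 CPM in DMSO and at 2.81 ± 0.69 in TAC (log2 -0.81, SE 0.22, edgeR adjusted p = 0.89). VCAM1, an adhesion molecule, had a DMSO mean of 16.9 ± 2.0 CPM, with 21.2 ± 7.4 for CSA, 11.3 ± 1.4 for TAC and 22.1 ± 0.6 for VCS. Its fold change was -0.58 in TAC (SE 0.19) and 0.39 in VCS (SE 0.19). IL11, a cytokine of the IL6 family, stood the other way, at 100.0 ± 13.6 CPM in DMSO and 135 ± 12.6 in TAC (log2 0.43, SE 0.14).

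The clock genes, to which PER1 belongs, numbered 16, of which 0 were called and 13, 13 and 14 lay above 0 in CSA, TAC and VCS, with medians of 0.10, 0.17 and 0.14. At an unadjusted p under 0.05 there were 1 higher in CSA, 3 higher and 1 lower in TAC, and 2 higher in VCS. BHLHE40, a clock repressor, was at 70.3 ± 7.4 CPM in DMSO and at 91.1 ± 4.3 in TAC (log2 0.37, SE 0.09, edgeR adjusted p = 0.69). PER2, the paralog of PER1, had means of 3.62 ± 0.22 CPM (DMSO), 4.43 ± 0.11 (CSA) and 4.56 ± 0.33 (TAC) (log2 0.29 and 0.33, SE 0.14 in both). NPAS2, a paralog of CLOCK, was at 1.13 ± 0.18 CPM in DMSO and at 2.56 ± 1.56 in VCS (log2 1.17, SE 0.43), with the VCS libraries widely spread.

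DUSP1, SGK1 and PER1 also answer to immediate early signals and cAMP. Of 23 genes of those responses 22 were tested, 0 were called, and 12, 12 and 13 lay above 0 in CSA, TAC and VCS, with medians of 0.0077, 0.02 and 0.07. At an unadjusted p under 0.05 there were 1 in each direction in CSA, 3 higher and 2 lower in TAC, and 1 higher in VCS. FOS, the classic immediate early gene, was at 0.476 ± 0.171 CPM in DMSO and at 0.895 ± 0.198, 1.10 ± 0.16 and 0.766 ± 0.291 in CSA, TAC and VCS (log2 0.90, 1.19 and 0.68; SE 0.37 in CSA and VCS). ATF3, a stress-induced transcription factor, was at 30.4 ± 3.4 CPM in DMSO and at 38.7 ± 4.2 in VCS (log2 0.35, SE 0.12). IER3, an early response gene of NF-kB, was at 270.3 ± 18.5 CPM in DMSO and at 230.04 ± 9.2 in CSA (log2 -0.23, SE 0.10).

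Relatives of the members by sequence gave 0 calls among 17, with 11, 10 and 10 above 0 in CSA, TAC and VCS; at an unadjusted p under 0.05 there was 1 lower in CSA and 1 in each direction in TAC. TSC22D4, a relative of TSC22D3, stood below 0 in TAC (log2 -0.17, SE 0.08) where TSC22D3 stood above it. DUSP6, a phosphatase of ERK related to DUSP1, was at 23.1 ± 1.9 CPM in DMSO and at 19.1 ± 0.9 in CSA (log2 -0.27, SE 0.10). Of 12 further genes of glutamine metabolism 11 were tested and 0 called, with 8, 10 and 8 above 0 and 2 higher in CSA at an unadjusted p under 0.05 (CAD and SLC1A5). The medians of the list were 0.06, 0.04 and 0.09 in log2 for CSA, TAC and VCS, so the list as a whole did not set CSA apart. In TAC, where GLUL had its own largest value, 0 of these genes had such a p. SLC1A5, the glutamine transporter, had means of 172 ± 12.5 CPM (DMSO), 218 ± 11.7 (CSA) and 173 ± 14.1 (TAC) (log2 0.34, SE 0.09, in CSA). CAD, an enzyme of pyrimidine synthesis that uses glutamine, differed from DMSO by 0.29 in CSA (SE 0.10), and ASNS, asparagine synthetase, by 0.41 (SE 0.20). Whether GLUL and these genes differ between CSA and TAC in opposite ways was not tested.

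**Figure D5:**
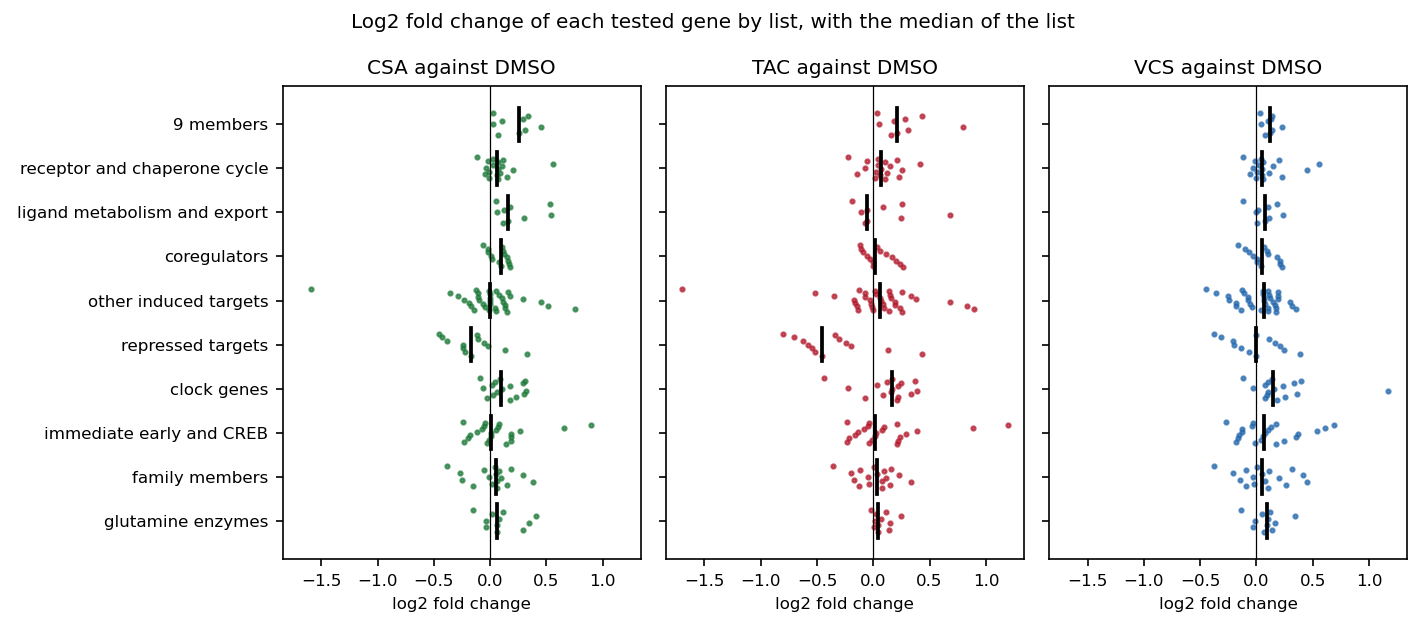
Log2 fold change against DMSO of each tested gene (points) in the 9 members and the 9 lists around them, with the median of each list (black bar), in 3 panels for CSA, TAC and VCS on a shared axis. The medians of the members (0.26, 0.21 and 0.12) lie right of 0; that of the repressed targets lies left of 0 in CSA and TAC (-0.17 and -0.45), and no point passed the test.

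The same lists did hold calls by library number, as did all genes, of which 12.9% were called lower and 2699 of 19784 higher. With libraries numbered 3 set against those numbered 1 and 2, the receptor and chaperone list had 7 of 18 called lower (HSP90AB1, HSPA8, PTGES3, FKBP4, FKBP5, PPP5C and BAG1) and HSPA1A called higher. FKBP5 differed by -0.39 (SE 0.05) and FKBP4 by -0.34 (SE 0.06). The steroid metabolism list had 3 of 9 called higher (HSD11B2, CYP3A5 and POR) and the coregulators 4 of 14 called lower (NCOA1, CREBBP, MED1 and NRIP1) with CRTC2 higher. Of the other induced targets 8 of 34 were called lower (FKBP5, ERRFI1, MT2A, BIRC3, MAOA, IRS2, NEDD9 and TIPARP) and 5 higher (ZFP36, SLC19A2, CDKN1C, DDIT4 and SAA1). Of the repressed targets 4 of 13 were called lower (IL6, CXCL8, CXCL1 and CSF2) and CCL2 higher.

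Among the immediate early genes 5 of 22 were called by number, all lower (FOS, FOSB, EGR1, CREM and MYC), with EGR1 at -1.10 (SE 0.10) and FOS at -0.70 (SE 0.21). DUSP1 and KLF9 were called in the same direction. The clock list had 2 of 16 called, both lower (CRY1 and NR1D2). The relatives of the members had 5 of 17 called lower (TSC22D1, KLF13, KLF16, DUSP4 and DUSP5) and 3 higher (SGK2, ZBTB7A and ZBTB20). Of the 11 glutamine genes tested, PPAT and CTPS1 were called lower and 1 other was called higher. Over all 19784 genes, 2699 were called higher and 2549 lower in that comparison.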

How the data were processed

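Poly(A) RNA libraries with in-line UMIs and ERCC spike-ins were made from the cultured podocytes, per the labels' protocols. The submitters' processing notes name Salmon and GRCh38, without versions. The deposited table holds whole numbers per gene, taken for Salmon's expected counts, which the authors had rounded. Library totals differ, so no scaling was seen. Whether UMIs were collapsed and whether counting used the strand are not given in the sources used here.

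The table had 62262 rows, 22339 of them without counts. With edgeR 4.0.16 (R 4.3.3), filterByExpr at a minimum count of 10 left 19784 genes, which were scaled by TMM and fitted with the quasi-likelihood model over all 12 libraries, group as the only term. Tests were two-sided, with Benjamini-Hochberg adjustment over all genes tested and a threshold of 0.05. The test was checked on simulated counts drawn independently for each library, without an effect of library number. That check does not bear on spread that libraries of the same number share. CPM are edgeR's counts scaled to the effective library size, and intervals of 95% come from the same fit. Replicate numbers were a second term only in the comparison of libraries numbered 3. No 2 libraries held identical values. Positions, overlaps and exon lengths came from GENCODE 29 on GRCh38. Symbols came from a separate list of gene names and were found for 62252 rows.

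The 9 genes and the lists around them were chosen with earlier results of these data known. The rule for naming took the 9 genes, NR3C2, HSD11B1, HSD11B2, FKBP5, FKBP4 and HSP90AA1 in every case. It added from each list every gene called in any comparison and the 3 with the smallest p in the test of the 4 groups, and for each member the gene most like it (log2 CPM with a prior count of 2). Some genes that the rule takes are not reported here. Other genes named are markers or, for SERPINA3, TAT and PCK1, list genes also expressed in liver. The list of liver transcripts was written with its values in view. The alternatives were DESeq2 1.42.0, RLE size factors, testing without the filter, fitting just the groups compared, a block for replicate number, leaving out each library in turn, and leaving out the libraries numbered 3 together.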

Additional observations from a re-analysis of the deposited data

How the results depend on the processing

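No member was called between treatment groups under any alternative: RLE size factors, no filter on low counts, DESeq2, only the groups compared, the replicate block, without the libraries numbered 3, or any of the 12 fits that left out a library. Over all genes the calls against DMSO for CSA, TAC and VCS were 2, 7 and 1 as reported, 86, 131 and 69 with no filter, 7, 34 and 7 by DESeq2, and 2, 1 and 0 with only the groups compared. Without the libraries numbered 3 they were 0, 3 and 1, and with a library left out 0 to 2, 0 to 10 and 0 to 8. With the replicate block they were 6, 41 and 0, and members with an unadjusted p under 0.05 were 3, 5 and 1, against 2, 2 and 0 without it. Over all 19784 genes, 2254, 2597 and 2179 had such a p with the block. Without it 405, 445 and 303 were higher and 336, 474 and 344 lower at that p, so the number rose over all genes too. The smallest member p with the block was that of DUSP1 in TAC (log2 0.31, SE 0.07, edgeR adjusted p = 0.15). As a hint from the data, same-numbered libraries of different groups deviated together (median correlation 0.19, with -0.086 for different numbers). Deviations were taken from group means, which ties the value for different numbers to that for the same number, so it is no separate baseline. Of 12 libraries, 11 correlated best with one of their own number. The labels give no pairing and only 14 of the 18 correlations exceeded 0.1 (lowest 0.0069), short of the requirement that all do, so the block was kept as an alternative. By library number, 4 members were called with no filter (NR3C1, KLF9, DUSP1 and GLUL), 2 under RLE and DESeq2, and 2 to 3 with a library left out. Over all genes the calls by number were 5620 with no filter, 5311 under RLE, 4918 by DESeq2 and 2777 to 6636 with a library left out. DESeq2 gave ZBTB16 no adjusted p by library number or for CSA against TAC.

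Of 801 fold changes of members under an alternative, 757 kept their direction and their side of the threshold and 44 reversed, in 20 of 63 results, all of them small or, for ZBTB16, of wide error. The cause was not tested. Without the libraries numbered 3 the log2 values were -0.027 for NR3C1 and -0.047 for KLF9 in CSA against DMSO, -0.038 for PER1 in TAC against DMSO, -0.062 for ZBTB16 and -0.053 for CRISPLD2 in CSA against VCS, and -0.00038 for KLF9 in TAC against VCS. PER1 in TAC against VCS was 0.0021 with RLE, 0.00037 with DESeq2, 0.00012 with only the groups compared and 0.0080 with the replicate block.

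With a library left out, log2 values against DMSO ran in CSA from -0.077 to 0.14 for KLF9, -0.067 to 0.15 for SGK1 and -0.012 to 0.26 for DUSP1, and in TAC from -0.066 to 0.10 for PER1. In VCS they ran from -0.065 to 0.15 for PER1, -0.94 to 0.49 for ZBTB16, -0.020 to 0.24 for KLF9, -0.072 to 0.19 for DUSP1 and -0.035 to 0.20 for GLUL. For CSA against VCS they ran from -0.053 to 1.39 for ZBTB16, -0.22 to 0.038 for KLF9, -0.076 to 0.17 for DUSP1, -0.029 to 0.26 for CRISPLD2 and -0.012 to 0.29 for GLUL. For CSA against TAC they ran from -0.042 to 0.11 for TSC22D3 and -0.78 to 0.016 for ZBTB16. For TAC against VCS they ran from -0.12 to 0.070 for NR3C1, -0.12 to 0.082 for PER1 and -0.089 to 0.17 for KLF9. The depth, 3 to 23 counts per library, limits ZBTB16.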
